A study of Rattus norvegicus with 15 samples.

Results

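The small leucine-rich proteoglycans described here are fibromodulin (Fmod), decorin (Dcn), biglycan (Bgn), lumican (Lum), osteoglycin (Ogn), osteomodulin (Omd), Prelp and asporin (Aspn), in rat mammary tumours. Their probes were found by matching the accession of each array probe to a rat gene symbol. All 8 genes were on the array, with 9 of its 41012 probes, since Ogn had a pair of probes and each other gene 1. Of these, 6 probes of 5 genes (Fmod, Prelp, Dcn, Bgn and Ogn) were bright enough to be tested among 21011 tested probes; Lum, Omd and Aspn were not. The family was chosen by a measured value: in earlier results of these data Fmod had a low level in supplemented against control tumours, so that difference is a description here and carries no test.

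The tumours came from female Sprague-Dawley rats whose dams (16 per group) ate chow with 3 (deficient), 35 (adequate, the control) or 180 (supplemented) mg zinc per kg from gestation day 10 to weaning at day 21. The daughters kept that chow until day 51, when every animal received 50 mg/kg of DMBA, a carcinogen that causes mammary tumours, into the stomach; from then on all groups ate adequate chow, and tumours were taken at 180 days. Each diet has 5 tumours, each on 1 single-colour array, and the labels do not say whether the 5 came from separate animals or litters. A p-value here treats the tumours as independent, and would be too small if some shared an animal or litter. The control animals therefore also carry DMBA tumours, and no tumour-free tissue was compared here.

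Small leucine-rich proteoglycans are secreted proteins of the extracellular matrix, built from leucine-rich repeats, that bind collagen fibrils and regulate their assembly and width. Several of them also bind growth factors of the TGF-beta family or cell-surface receptors. Fmod, Lum, Prelp and Omd belong to the class whose members can carry keratan sulfate chains, Dcn, Bgn and Aspn to the class of decorin, and Ogn to a further class; in connective tissue they are made mainly by fibroblasts and related cells.

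Each level is the log2 of a probe's signal after subtracting the 75th percentile of its own array, so 0 is that percentile and 1 unit is a doubling; levels of different probes are not comparable. Luminal epithelium was present in each sample, since the mean level of 5 luminal epithelial markers (Krt8, Krt18, Krt19, Epcam, Cdh1) lay between 4.64 and 5.50 in all 15. No tumour-free tissue was compared, so these markers cannot tell tumour from gland, and the tumour label was taken as given. Because these are bulk samples, fewer cells of a type and less RNA per cell cannot be told apart. The arrays differed in brightness, with 13854 to 24009 of 43379 non-control spots well above background.

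Fmod carries the largest supplemented minus control difference in the family, so the stretch of DNA before its gene is shown first, with 2 short motifs in capitals. These are the 250 bases before the RefSeq start of Fmod, chr13:48045317-48045566 on the + strand of GRCr8; the capitals mark GGGCGG, a core bound by Sp1-type factors, and a match to TGCACNC, a form of the core of metal response elements, the motif that the zinc sensor Mtf1 binds.
Fmod promoter: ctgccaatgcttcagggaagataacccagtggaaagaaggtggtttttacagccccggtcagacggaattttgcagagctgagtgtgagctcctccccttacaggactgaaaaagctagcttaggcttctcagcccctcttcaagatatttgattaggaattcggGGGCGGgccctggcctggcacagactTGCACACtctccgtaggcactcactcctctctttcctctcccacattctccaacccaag
The TGCACNC match lay at -59 to -53 from the gene start and the GGGCGG match at -85 to -80. Searched on both strands in the same way, 10.3% of 33469 RefSeq promoters held TGCACNC and 30.5% held GGGCGG. The other core searched for metal response elements, TGCGCNC (11.8% of promoters), the CArG box (1.50%) and TATAAA (12.9%) had 0 matches in Fmod. Promoters of 5 members were at hand: those of Lum, Omd and Aspn had 0 matches to any of these motifs, and that of Ogn held only 2 matches to TATAAA. Those of Dcn, Bgn and Prelp were not at hand, so the matches are not shown to be particular to Fmod. A match describes the letters in this window and shows no binding.

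Fmod binds collagen I fibrils and was well above background on all 15 arrays. The 5 control tumours stood at 4.83, 4.74, 4.18, 5.50 and 4.81 (mean 4.81 ± 0.47, SD, n = 5). The deficient tumours stood at 4.51, 4.95, 2.83, 4.70 and 4.77 (4.35 ± 0.87). The supplemented tumours stood at 4.01, 3.39, 3.91, 3.50 and 2.95 (3.55 ± 0.43). Every supplemented tumour lay below every control tumour, while the deficient tumours lay among the controls except replicate 3, which was the lowest of all 15. Of all tested probes, 31 of 21011 (0.148%) had every supplemented tumour below every control tumour; since this contrast chose Fmod, nothing is read from that share. The supplemented mean was 2.40-fold lower than the control mean, a log2 difference of -1.26. The difference was negative within each of the 4 slides, which all held the 3 diets, and ran from -2.21 to -0.68.

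Deficient against control, the Fmod difference was -0.46 (95% interval -1.22 to 0.30; limma adjusted p = 0.987), and without deficient replicate 3 it was -0.08. Supplemented against deficient, it was -0.80 (limma adjusted p = 0.703), and without that tumour -1.18. It was negative within all 4 slides (-1.82 to -0.27) in the second of these, and in 3 of 4 in the first (-0.41 to 0.21). Supplemented minus deficient shares the supplemented tumours with the contrast that chose Fmod, so its value for Fmod is not independent of that choice. In each of the 3 pairwise comparisons limma called 0 of 21011 probes at adjusted p 0.05 (0.0%), and hence 0 of the 6 member probes; at an unadjusted p under 0.05 the counts over all probes were 822 (3.91%) for deficient minus control, 415 (1.98%) for supplemented minus control and 1482 (7.05%) for supplemented minus deficient.

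**Figure D1:**
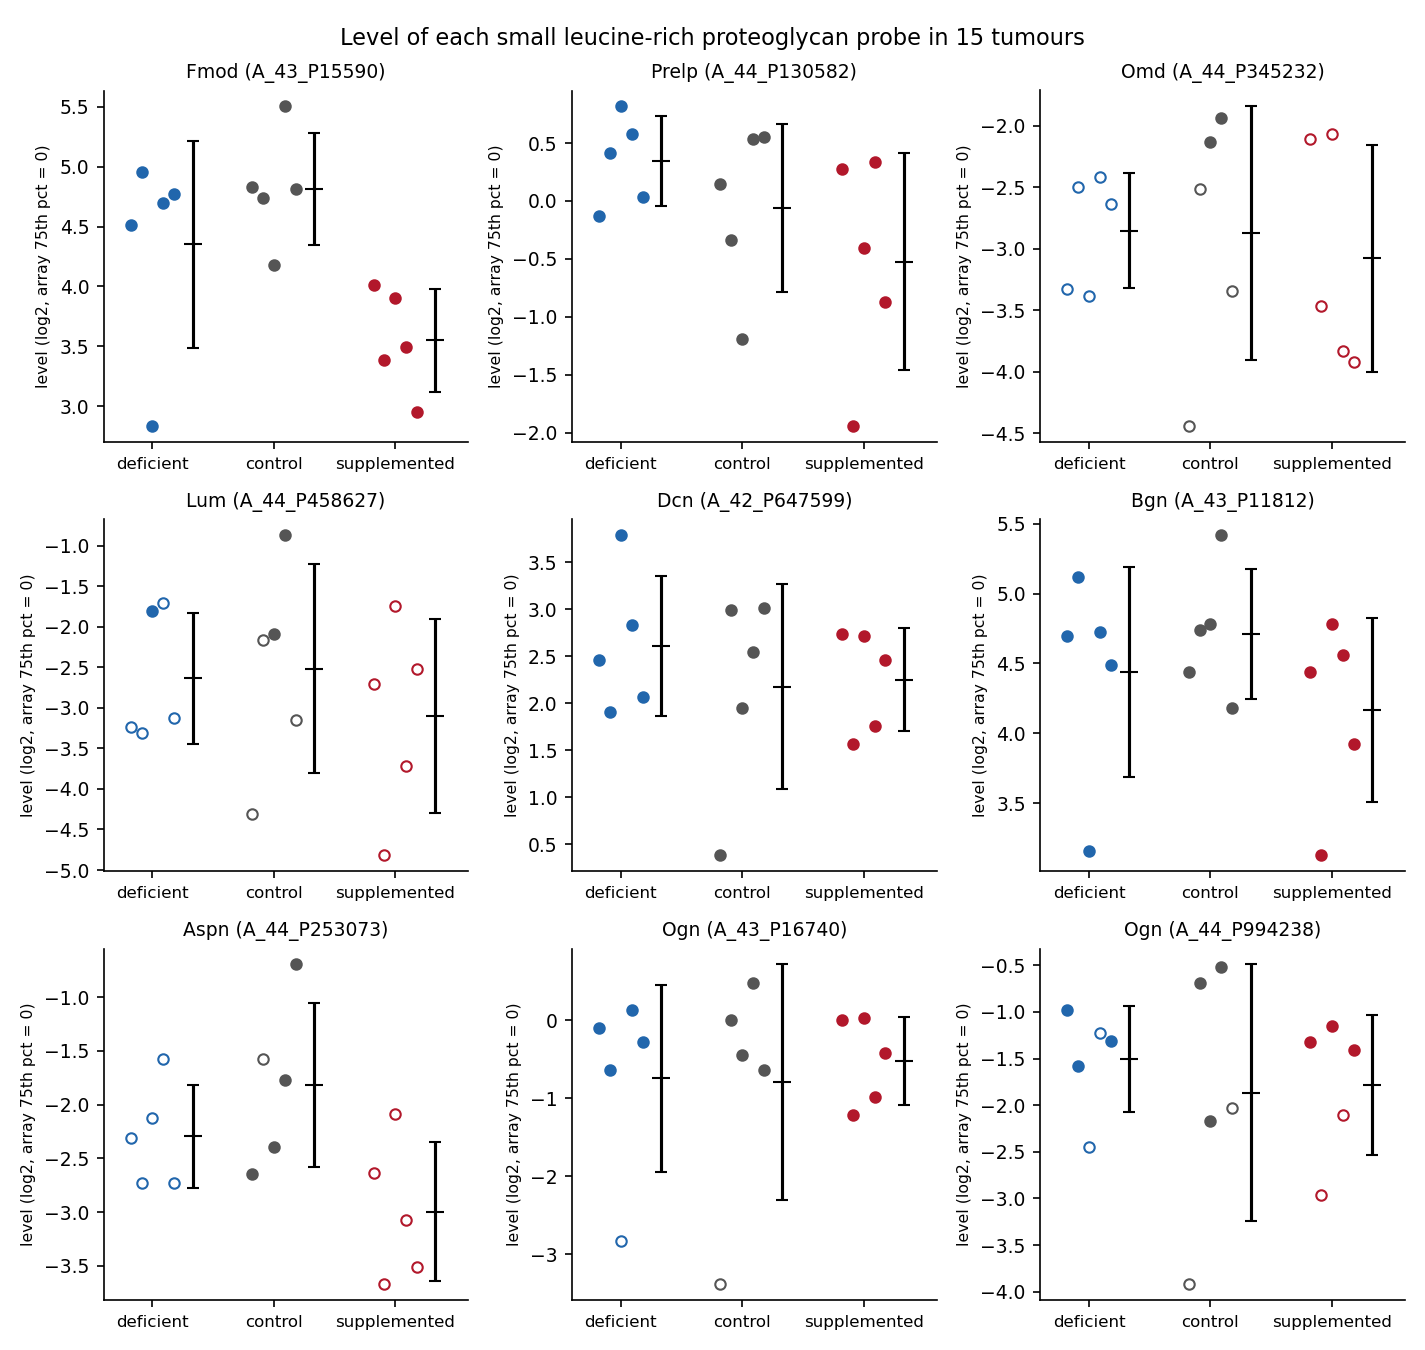
Level of each of the 9 member probes (log2, array 75th percentile = 0) in the 15 tumours by diet; each point is a tumour, open where the probe was not well above background, and bars give the mean and SD of 5 tumours. For Fmod the 5 supplemented tumours (2.95 to 4.01) lie below the 5 control tumours (4.18 to 5.50), with deficient replicate 3 at 2.83; the groups overlap for the other probes.

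Prelp, a collagen-binding relative that lies next to Fmod on rat chromosome 13 with 0 protein-coding genes between them, was also well above background on all arrays. Its control tumours stood at 0.15, -0.34, -1.19, 0.53 and 0.55 (-0.06 ± 0.73). Its deficient tumours stood at -0.13, 0.42, 0.82, 0.58 and 0.03 (0.34 ± 0.39), and its supplemented tumours at 0.28, -1.94, -0.41, 0.34 and -0.87 (-0.52 ± 0.94). The diets overlapped, and supplemented replicate 2 was the lowest. Prelp had the highest mean in deficient and the lowest in supplemented tumours, with a supplemented minus deficient difference of -0.87 (-1.74 to 0.01; limma adjusted p = 0.710) that was negative in 3 of 4 slides and was -0.51 without supplemented replicate 2 and -0.44 with the normexp background correction. Against control the differences were 0.40 (-0.47 to 1.28) in deficient and -0.46 (-1.34 to 0.41) in supplemented tumours (limma adjusted p = 0.987 and 1.000). Without control replicate 3 the first was 0.12 and the second -0.75, and without supplemented replicate 2 the second was -0.11. The deficient mean thus stood below control for Fmod and above it for its neighbour, each within the spread between tumours.

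Bgn, a relative of decorin that binds collagen and can signal through Toll-like receptors, stood at 4.44, 4.74, 4.78, 5.42 and 4.18 in control tumours (4.71 ± 0.46). The deficient tumours stood at 4.70, 5.12, 3.16, 4.73 and 4.49 (4.44 ± 0.75), and the supplemented ones at 4.44, 3.13, 4.79, 4.56 and 3.93 (4.17 ± 0.66). The diets overlapped; deficient replicate 3 and supplemented replicate 2 stood apart at the bottom. Bgn was lower by a mean of 0.54 in supplemented than in control tumours on the log2 scale (difference -0.54, -1.32 to 0.24; limma adjusted p = 1.000). That difference was negative in all 4 slides, from -0.87 to -0.0029, and with normexp it was -1.11, but -0.28 without supplemented replicate 2. Supplemented minus deficient was -0.27, -0.77 with normexp, -0.59 without deficient replicate 3 and -0.01 without supplemented replicate 2. Deficient minus control it was -0.27 (-1.05 to 0.51; adjusted p = 0.987), -0.10 without control replicate 4 and 0.05 without deficient replicate 3.

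Dcn, the best known member and an antagonist of TGF-beta and of receptor tyrosine kinases, was well above background on all arrays. Its control tumours stood at 0.38, 2.99, 1.94, 2.55 and 3.01 (2.18 ± 1.09). The deficient tumours stood at 2.46, 1.91, 3.78, 2.83 and 2.06 (2.61 ± 0.75), and the supplemented tumours at 2.74, 1.57, 2.71, 1.76 and 2.46 (2.25 ± 0.55). Control replicate 1 was the lowest of all 15 and deficient replicate 3, the lowest tumour for Fmod, was the highest. The differences were 0.43 (-0.56 to 1.43) for deficient minus control, 0.07 (-0.92 to 1.07) for supplemented minus control and -0.36 (-1.35 to 0.63) for supplemented minus deficient, with limma adjusted p of 0.987, 1.000 and 0.880. Without control replicate 1 the first was -0.01 and the second -0.37; with array weights the third was 0.12.

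Ogn, also called mimecan, was well above background on 13 arrays with its brighter probe. The control tumours stood at -3.38, 0.00, -0.45, 0.48 and -0.64 (-0.80 ± 1.51) and the deficient tumours at -0.11, -0.64, -2.83, 0.13 and -0.28 (-0.74 ± 1.20). The supplemented tumours stood at -0.00, -1.22, 0.03, -0.98 and -0.43 (-0.52 ± 0.56). Control replicate 1 and deficient replicate 3, both not well above background, were far under the other 13 tumours, which the diets shared. The differences were 0.05 for deficient minus control (-1.32 to 1.42) and 0.28 for supplemented minus control (-1.10 to 1.65; limma adjusted p = 0.998 and 1.000). Without control replicate 1 they were -0.59 and -0.37, and the first changed sign in 9 of 26 alternatives. The second Ogn probe, well above background on 9 arrays, followed the first across tumours (Pearson r = 0.88, n = 15, a description); supplemented minus deficient was 0.22 with the first (-0.30 without deficient replicate 3) and -0.28 with the second (limma adjusted p = 0.950 and 0.920). The sign of that difference thus depended on the probe.

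Lum, Omd and Aspn were near the background of these arrays. Lum, the main keratan sulfate proteoglycan of the cornea, was well above background in 2 control, 1 deficient and 0 supplemented tumours, and Omd, a bone matrix protein, in 2 control tumours only. Aspn, a relative of decorin that binds TGF-beta, was well above background in 4 of 5 control, 0 of 5 deficient and 0 of 5 supplemented tumours. Of all 41012 probes, 1 (0.00244%) showed that pattern of at least 4 of 5 in control and 0 of 10 elsewhere, and it is this Aspn probe; 2 probes (0.00488%) showed the same pattern for deficient and 0 (0.0%) for supplemented tumours. The pattern was defined after the Aspn values were seen.

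The Aspn levels themselves overlapped. They stood at -2.64, -1.58, -2.40, -1.77 and -0.70 in control tumours (-1.82 ± 0.76) and at -2.31, -2.73, -2.13, -1.58 and -2.73 in deficient tumours (-2.30 ± 0.48). They stood at -2.64, -3.67, -2.09, -3.07 and -3.51 in supplemented tumours (-3.00 ± 0.65). The control tumour that missed the background mark, replicate 2, had the second highest scaled level of its group. Aspn did not enter the test; with no filter on dim probes its log2 difference was -0.48 for deficient minus control and -1.18 (-2.0 to -0.36) for supplemented minus control (limma adjusted p = 0.991 and 1.000). In the authors' deposited values these were -0.22 and -0.27.

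Among the other genes of the family, Kera and Epyc, which neighbour Lum and Dcn, and Chad were each well above background on 1 array, and Nyx and Tsku on 0; none of the 5 was tested. Ogn, Omd and Aspn lie next to each other on rat chromosome 17 with 0 protein-coding genes between them, and Dcn and Lum likewise on chromosome 7. Within each of these clusters 1 gene was measured and its neighbours lay near background, so only Prelp and Fmod allowed a comparison of adjacent genes.

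**Figure D2:**
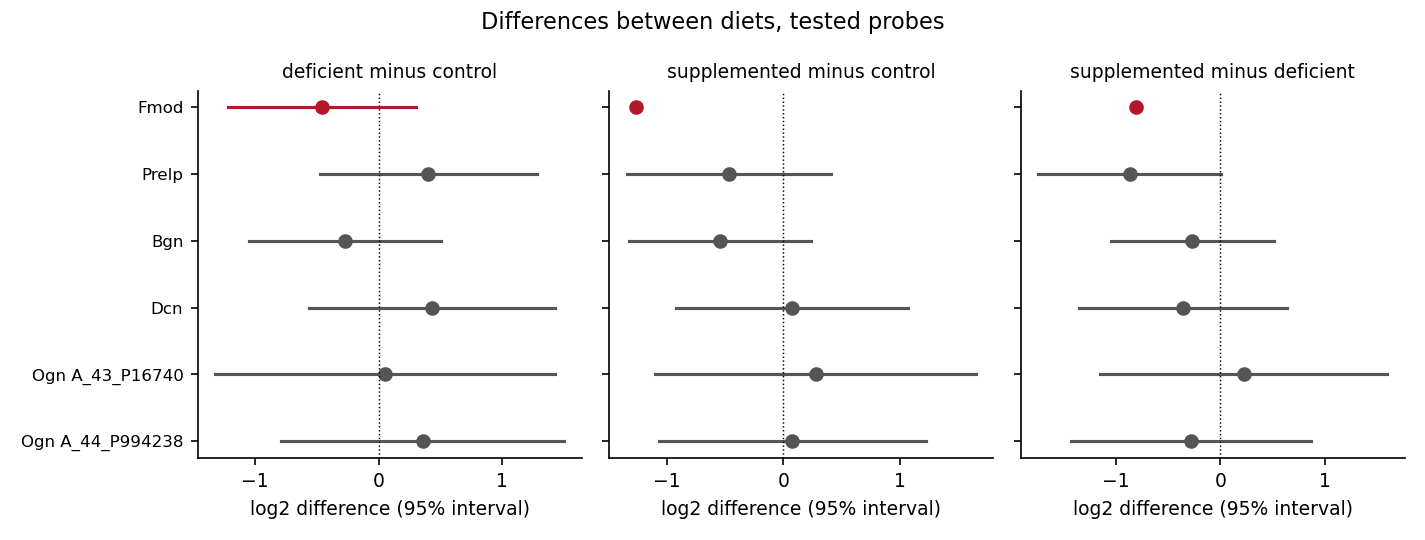
Log2 difference between diets from the limma fit over 15 tumours for the 6 tested member probes, 1 panel per comparison, with 95% intervals. Fmod is drawn without an interval in supplemented minus control (-1.26), the contrast that chose it, and in supplemented minus deficient (-0.80), which shares its supplemented tumours; the intervals of the other 5 probes reach across 0.

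The question of whether Fmod moves apart from its family was put to the 5 measured genes side by side. In supplemented against control tumours 3 were lower (Fmod, Bgn and Prelp) and 2 higher (Dcn and Ogn), with a median of -0.46, or -0.20 without Fmod; over all probes 51.2% were lower and the median was -0.0067. Without control replicate 1, Dcn and Ogn each stood at -0.37, so that all 5 were lower, and without supplemented replicate 2 the median was -0.11. In supplemented against deficient tumours 4 were lower and only Ogn was higher, with a median of -0.36, and 50.1% of all probes were lower; without deficient replicate 3 Ogn was lower too (-0.30) and the median was -0.59, and without supplemented replicate 2 it was -0.19. In deficient against control tumours 2 were lower (Fmod and Bgn) and 3 higher, with a median of 0.05, and 50.7% of all probes were lower; that median was -0.34 without control replicate 1 and changed sign in 10 of 28 alternatives.

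Per tumour, Fmod minus the mean of Prelp, Dcn, Bgn and Ogn gives a value that is meaningful only between tumours. It was 3.31 ± 0.65 in control (2.89 to 4.44), 2.69 ± 0.67 in deficient (1.60 to 3.25) and 2.21 ± 0.49 in supplemented tumours (1.67 to 3.00; SD, n = 5 each). In supplemented tumours 4 of 5 lay below every control tumour, and replicate 2, at 3.00, lay among them. The supplemented minus control difference of this value was -1.10, negative in all 4 slides (-2.29 to -0.33); deficient minus control was -0.61 (-1.65 to 0.36 by slide) and supplemented minus deficient -0.49 (-1.52 to -0.04). Leaving Ogn out of the mean gave -0.95, -0.65 and -0.30 for the same 3 comparisons. These are descriptions, because the choice of Fmod rests on the supplemented minus control difference.

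Against Bgn alone, the member it tracked best, Fmod stood apart less. Fmod minus Bgn was 0.10 ± 0.47 in control, -0.08 ± 0.23 in deficient and -0.62 ± 0.55 in supplemented tumours. Supplemented minus control was -0.72 (-1.34 to -0.31 within slides), against -1.26 for Fmod itself. The groups overlapped, with control tumours from -0.60 to 0.63 and supplemented tumours from -1.06 to 0.26; the tumour with the high value in the supplemented group was replicate 2, in which Bgn was lowest. The low Fmod of deficient replicate 3 was matched by a low Bgn, and its Fmod minus Bgn was -0.33, in a group that ran from -0.33 to 0.28.

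**Figure D3:**
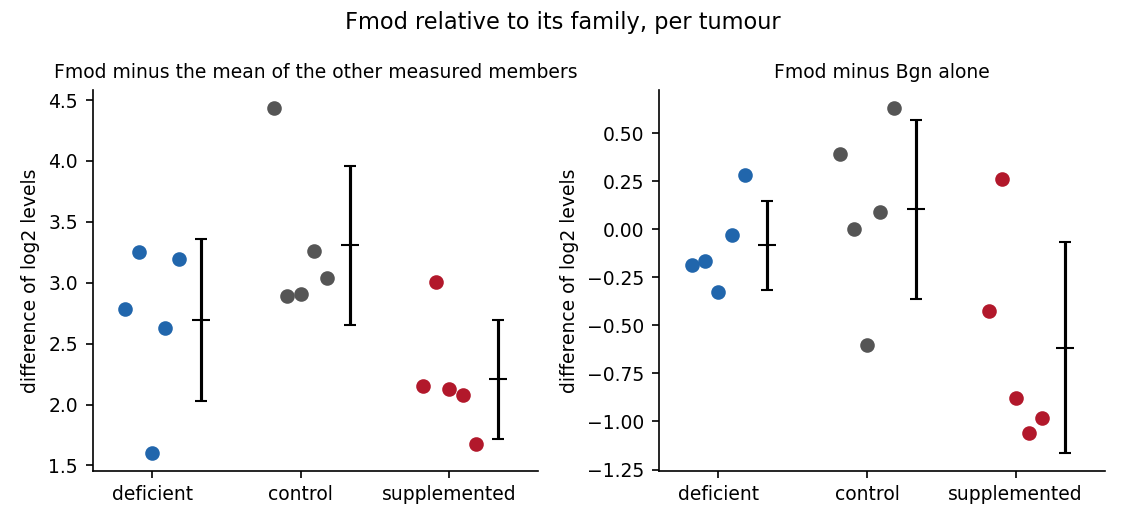
Fmod level minus the mean level of Prelp, Dcn, Bgn and Ogn (left) and minus the level of Bgn (right), in log2 units, for each of 15 tumours by diet, with mean and SD of 5. On the left 4 supplemented tumours lie below all control tumours (control 2.89 to 4.44, supplemented 1.67 to 3.00); on the right the supplemented mean is -0.62 and the control mean 0.10, with overlapping groups.

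Over all 15 tumours, from the lowest to the highest, Fmod spanned 2.67, Bgn 2.29, Prelp 2.76, Dcn 3.40 and Ogn 3.86 log2 units. Their SD over all 15 tumours lay at percentiles 92.9, 84.1, 91.9, 93.0 and 98.3 of the SD of all tested probes, in the same order of genes. Control replicate 4 was the highest tumour for Fmod, Bgn and Ogn, and also for Lum and Omd. Supplemented replicate 2 was the lowest for Bgn, Prelp, Lum and Aspn, and control replicate 1 for Dcn, Ogn and Omd.

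Of the 10 pairs among the 5 measured members, Fmod with Bgn was the only one past adjusted p 0.05 by Pearson r, and it did not pass by Spearman rho. Across 15 tumours Pearson r was 0.76 (permutation p = 0.00092, adjusted over 10 pairs 0.0092) and Spearman rho 0.56 (permutation p = 0.0315, adjusted 0.158). It stayed at 0.76 after the diet means were taken out, was 0.81 after diet and slide means, 0.79 and 0.76 within the scan days of 8 and 7 arrays, and 0.63 without the 2 tumours farthest from the median of Fmod. No relation of Fmod with Dcn passed the test (r = -0.19, rho = -0.10, permutation p adjusted 0.617 and 0.970). Fmod with Prelp gave r = 0.35 and Fmod with Ogn 0.33 (permutation p adjusted 0.352 each).

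Dcn with Ogn shows how much single tumours carried: r was 0.36 over 15 tumours (rho 0.45, permutation p adjusted 0.352 and 0.234), 0.88 without deficient replicate 3 and -0.22 without control replicate 1. Within the scan days it was -0.55 and 0.97. In control replicate 1 both genes were at their lowest, while in deficient replicate 3 Dcn was at its highest and Ogn second lowest. Bgn with Ogn gave r = 0.56 (rho 0.57, permutation p adjusted 0.129 and 0.158), with 0.87 and 0.28 within the scan days. The median r of the 10 pairs was 0.34.

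**Figure D4:**
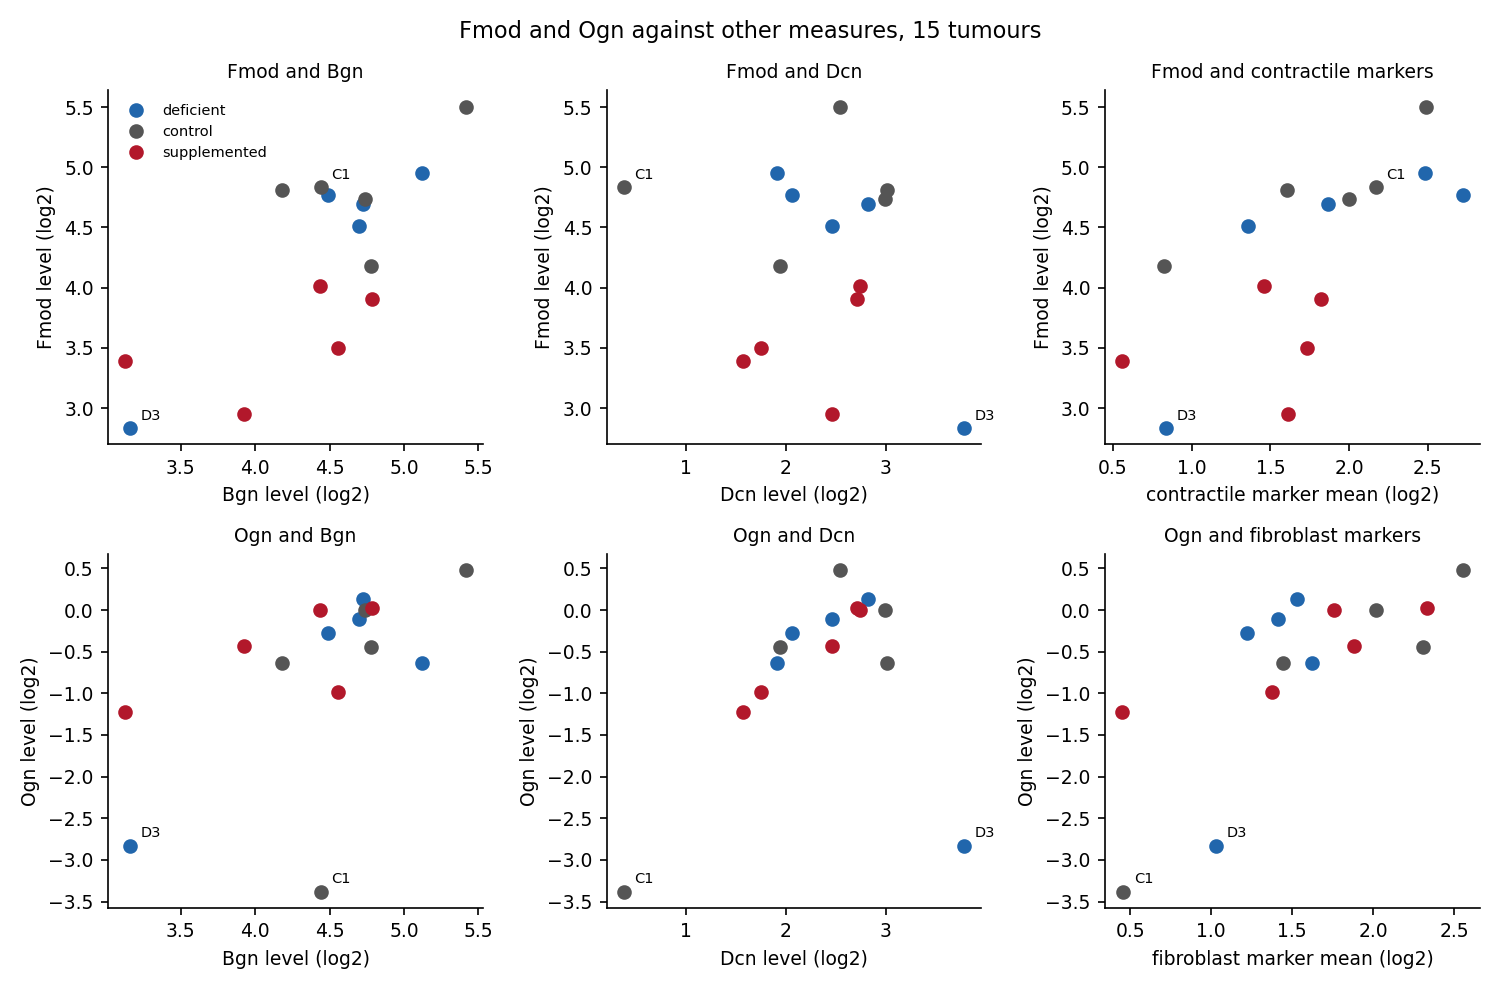
Levels (log2, array 75th percentile = 0) of Fmod, top, and Ogn, bottom, against Bgn, Dcn and the mean of a marker list, 1 point per tumour coloured by diet; D3 is deficient replicate 3 and C1 control replicate 1. Fmod rises along the Bgn axis (r = 0.76) and not along the Dcn axis (r = -0.19), and D3 and C1 lie outside the cluster of the other 13 tumours in the Ogn and Dcn panel.

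Marker genes of other cells moved with some members. The lists were chosen with earlier results known, and these 20 relations (5 members, 4 lists) after values were seen. Further marker lists were measured and left out of these relations. The adjustment covers only the 20, so its p-values may be too small. The mean of 5 contractile markers of smooth muscle and myoepithelium (Myh11, Tagln, Cnn1, Myl9, Des) correlated with Fmod at r = 0.68 and rho = 0.71 (permutation p = 0.00525 and 0.00409, adjusted over 20 relations 0.0350 and 0.0382), at 0.71 with diet means taken out, at 0.64 and 0.85 within scan days and at 0.65 without the 2 farthest tumours. Its lowest, median and highest values were 0.83, 2.00 and 2.49 in control, 0.84, 1.87 and 2.72 in deficient and 0.56, 1.61 and 1.82 in supplemented tumours. The part of these cells in the Fmod differences was not tested. Fmod did not pass with the mean of 7 fibroblast markers (Pdgfra, Pdgfrb, Fap, Col1a1, Col1a2, Postn, Fbln1; r = 0.24, rho = 0.19, permutation p adjusted 0.540 and 0.651). With 5 basal epithelial markers (Krt5, Krt14, Krt17, Tp63, Dsg3) Fmod gave r = 0.56 and rho = 0.61 (permutation p adjusted 0.0954 and 0.0831). With the luminal epithelial list it gave r = 0.24 and rho = -0.01 (permutation p adjusted 0.540 and 0.964). No member passed with either epithelial list, and Bgn gave r = 0.57 with the basal one (permutation p adjusted 0.0954).

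The other members were set beside the same contractile and fibroblast lists. Prelp gave r = 0.50 with the contractile list (rho 0.29, permutation p adjusted 0.147 and 0.488), and 0.71 without deficient replicate 3. With the fibroblast list Prelp gave r = 0.06 (rho -0.13, permutation p adjusted 0.877 and 0.799). Bgn passed with both, at r = 0.68 for the contractile list (rho 0.53, permutation p adjusted 0.0350 and 0.168) and 0.65 for the fibroblast list (rho 0.69, adjusted 0.0392 and 0.0382). Within the scan days Bgn gave 0.55 and 0.85 with the first list and 0.70 and 0.68 with the second. Ogn passed with the fibroblast list (r = 0.74, rho 0.74, permutation p adjusted 0.0350 and 0.0382), at 0.63 without control replicate 1 and at 0.64 and 0.81 within the scan days. Dcn with the fibroblast list gave r = 0.43 (rho 0.34, permutation p adjusted 0.256 and 0.412), and 0.14 without control replicate 1, the tumour with a fibroblast mean of 0.46 in a control range of 0.46 to 2.55. No pair of correlations was compared by a test, so the members are not shown to differ in this.

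Fibroblast means had a lowest, median and highest value of 0.46, 2.02 and 2.55 in control, 1.03, 1.41 and 1.62 in deficient and 0.45, 1.76 and 2.33 in supplemented tumours. The lowest of the supplemented tumours was replicate 2, in which Bgn and Prelp were also lowest; its contractile mean was 0.56. Deficient replicate 3, with its low Fmod, Bgn and Ogn and high Dcn, had a contractile mean of 0.84 and a fibroblast mean of 1.03. Its mast cell mean (-0.78, 4 markers) and skeletal muscle mean (-1.55, 2 markers) were the lowest of the 15 tumours. Counted from the lowest, it ranked 14 for T cell and erythrocyte markers and 13 for macrophage markers. The part of these cells in the members' levels was not tested. Of markers of cartilage, tendon and bone, tissues in which Fmod, Omd and Prelp are abundant, 7 of 8 on the array (Comp, Tnmd, Ibsp, Bglap, Sp7, Cnmd, Matn1) stood too low to be tested and Col2a1 was the exception. Its mean was 3.65 ± 0.53 in control, 3.15 ± 0.56 in deficient and 2.92 ± 0.79 in supplemented tumours (SD, n = 5), the same order of diets as for Fmod, with overlapping groups (2.84 to 4.10, 2.43 to 3.96 and 2.08 to 4.01). Erythrocyte markers (Alas2, Ahsp, Hbb, Hbb-b1) had a mean of 0.85 to 3.02 in deficient, -1.39 to 1.35 in control and -1.16 to -0.19 in supplemented tumours. The deficient and supplemented ranges did not overlap. Of single tested probes, 135 of 21011 (0.643%) had every supplemented tumour below every deficient tumour. This list was picked from several marker lists, so nothing is read from its separation. The part of Col2a1 or of the erythrocyte markers in the members' differences was not tested.

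The genes whose level was most like that of Fmod across the 15 tumours, among 5354 genes well above background on every array, were Mylk (r = 0.88), which encodes the kinase of myosin light chains, Plekha4 (0.84), Zfp365 (0.82), Neurl2 (0.82), Fbxl22 (0.81), the tropomyosin gene Tpm2 (0.80), Tmem204 (0.79) and Gpx7 (0.79). Bgn ranked 14th in this order, Prelp 663rd and Dcn 3628th. The most opposite were Cyb5a (-0.79), Igsf5 (-0.78), Mtmr4 (-0.75) and Ppp2r1b (-0.75). With diet means taken out Mylk stood at 0.86 and Gpx7 at 0.90, and without deficient replicate 3 at 0.84 and 0.71. The mean of the other 4 measured members was followed by other genes, namely Igfbp6 (0.86), Mgp (0.85), Cilp (0.82), Loxl1 (0.81) and Selenom (0.78). Ranked by their likeness to single members, an addition made after the values were seen, Mylk was second for Bgn (0.82) after P3h3 (0.86), and C1s (0.86) and Apod (0.84) led for Dcn. These correlations share the same 15 arrays, were picked as extremes and are a description.

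Of the genes that act with these proteoglycans, 0 passed the test in any comparison. Among 20 tested genes of collagen fibrils and their processing (of 32 listed), all 20 were lower in deficient than in control tumours, with a median of -0.37 against -0.0046 over all probes, of which 50.7% were lower. The largest was Pcolce, an enhancer of procollagen cleavage, at -1.07 (limma unadjusted p = 0.0230, adjusted 0.987); Col1a1 stood at -0.65, Col5a1 at -0.44, Col1a2 at -0.35, Sparc at -0.29 and Col3a1 at -0.13. The median was -0.62 without control replicate 1 and -0.23 without control replicate 4, and 17 to 20 of 20 genes were lower over the alternatives that kept all 20. In supplemented tumours 14 of 20 were below control (median -0.31), among them Col1a1 (-0.41), Pcolce (-0.43), Col5a1 (-0.36), Sparc (-0.33), Col1a2 (-0.31) and Col3a1 (-0.27). That median was -0.0089 without supplemented replicate 2 and -0.098 without control replicate 4. Supplemented against deficient, 18 of 20 collagen genes were higher (median 0.15), but 10 of 20 with normexp (median -0.0053) and 9 of 20 without supplemented replicate 3 (-0.0072).

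Of the TGF-beta genes, whose ligands several members bind, 9 of 12 tested were higher in deficient and 8 of 12 in supplemented than in control tumours, with medians of 0.15 and 0.12. With array weights 8 of 12 were lower in deficient tumours (median -0.16), and with normexp 6 of 12 were higher in supplemented tumours (0.0091). Tgfb2 stood at 0.80 and 0.41, Tgfb3 at 0.48 and 0.38, the receptor Tgfbr1 at 0.13 and 0.28 and Tgfbr2 at 0.41 and -0.09, in that order of diets. For Tgfb2 in deficient tumours the limma unadjusted p was 0.00836 and the adjusted p 0.987. A second Tgfbr1 probe stood at 0.43 and 0.02. Tgfb1 was well above background on 2 arrays and was not tested. Of 10 tested receptors for these proteoglycans, 6 were higher in deficient and 7 in supplemented tumours (medians 0.12 and 0.04); in supplemented tumours 6 of 10 were lower with normexp (median -0.19) and with array weights (-0.02). Tlr2 stood at 0.23 and 0.17, Tlr4 at 0.31 and 0.18, Egfr at -0.20 and 0.02 and Lrp1 at -0.17 and -0.25; Egfr had a second probe of opposite sign in supplemented tumours, and Met was not tested.

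Among 8 tested proteases that cleave family members, 4 were higher and 4 lower in supplemented than in control tumours (median 0.02; with normexp 5 of 8 were lower, median -0.40). The 2 with an unadjusted p under 0.05 were Mmp13 at 1.96 (limma unadjusted p = 0.0208) and Mmp3 at 1.79 (0.00984), both with adjusted p = 1.000; in deficient tumours they stood at 1.12 and 0.66. Mmp2 stood at -0.38, Mmp14 at 0.08 and Bmp1, which trims the propeptides of biglycan and of procollagens, at -0.11. Adamts4 and Adamts5 were too dim to be tested.

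The enzymes that build the sugar chains gave no larger values. Of 11 tested genes of chondroitin and dermatan sulfate synthesis, 3 were higher in deficient and 6 in supplemented than in control tumours (medians -0.26 and 0.03; with normexp 4 were higher in supplemented tumours, median -0.08), with Xylt2 at 0.18 and -0.02, Chst11 at -0.44 and 0.15 and Dse at -0.21 and 0.17. Of 6 genes of keratan sulfate synthesis, the chain that Fmod can carry, 2 were higher and 4 lower in supplemented tumours (median -0.04), but 5 higher with normexp (median 0.20); B3gnt7 was the lowest at -0.45 (limma unadjusted p = 0.0472, adjusted 1.000) and -0.01 in deficient tumours. Of 17 other proteoglycans tested, 11 were higher in supplemented tumours (median 0.08), but 4 with normexp (median -0.32) and 8 with array weights (-0.0033), with Vcan at 0.02 and Sdc1 at 0.16.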

How the data were processed

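RNA of 15 rat mammary tumours was measured on 15 Cy3 Agilent 4x44K arrays. The deposited values are linear spot intensity from the scanner, with background already subtracted. Per the file headers this was done by Agilent's Feature Extraction 11.5.1.1, whereas the submitters' processing notes name 15.5. The authors' deposited table of log2 values, with normalization steps not given in the sources used here, was a further setting, called the deposited values.

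Levels were log2(processed signal) minus each array's 75th percentile over non-control spots; spots marked as outliers were set aside and repeated spots were averaged. A probe was tested where 5 or more of the 15 arrays showed it well above background (21011 probes, 40 missing values). Genes were named from accessions through a RefSeq table (GRCr8), which matched 17502 probes; no gene positions on the array's own build are given. Diets were compared with limma 3.58.1 in R 4.3.3 (two-sided, 12 residual degrees of freedom; p-values adjusted by Benjamini-Hochberg over all tested probes, threshold 0.05), tested on simulated data first. The median half-width of a 95% interval was 0.51 log2 units, and the number of arrays limits the precision. Permutation tests used 100000 resamples and were two-sided.

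Alternatives were normexp (on the median spot signal, since a mean signal was not in the columns used here; offset 50), the deposited values, quantile normalization, other filters on dim probes, slide, scan day, replicate number or brightness in the fit, array weights, and leaving out arrays. Each of the 4 slides held all 3 diets, and scanning took place on 2 days. Same-numbered tumours did not deviate together (15 pairs, mean r -0.00035, 6 of 15 over 0.1), so the numbers were not used as pairs. The members, gene lists, markers and the rule for named genes (all members; set genes of each list; the 8 genes most and 4 least like Fmod and the 5 most like the mean of the others) were chosen with earlier results of these data known. A gene with several probes is shown by its brightest. The negative control of the labels was taken to be the group on adequate chow; 1 free-text label that describes mammary gland at day 21 was not followed, because the other labels and the design give tumours at 180 days. Mammary tumour weights or counts were not analysed here.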

Additional observations from a re-analysis of the deposited data

Results flagged for a closer look

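In 4 of 21 sets of 5 tumours (7 measures in 3 diets) the lowest or highest tumour lay far from the rest by Dixon's criterion, which chance meets in about 1 of 20 sets. The sets are not independent, so no excess is read from these shares. Fmod minus the mean of the others is computed from other measures, and every flag fell on deficient replicate 3 or control replicate 1. Fmod in deficient replicate 3 was 2.83, with the nearest deficient tumour at 4.51. Ogn, with its brighter probe, was -2.83 in the same tumour, with the nearest at -0.64. Ogn was -3.38 in control replicate 1, with the nearest control tumour at -0.64. Both Ogn values were not well above background, and the second Ogn probe was not among the flagged sets. With that probe the deficient tumours ran from -2.45 to -0.98 and the control tumours from -3.92 to -0.52, with control replicate 1 lowest. Fmod minus the mean of the other measured members was 4.44 in that control tumour, with the nearest at 3.26. Control replicate 1 also had the lowest Dcn and Ogn of the 15 tumours, and its Fmod of 4.83 lay within the control range.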

How the results depend on the processing

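Of 804 values under alternatives, for 30 results, 6 moved by more than the spread between tumours or, for counts, by over 1.5 times. No member was called, so no called member value could change sign; among values that were not called, deficient minus control changed sign for Ogn (brighter probe) in 9 of 26 alternatives and supplemented minus control for Dcn in 5 of 27. With array weights 1 probe was called for supplemented minus deficient and 1 by the F test, against 0 and 0; leaving out single tumours gave 0 to 1 probes for supplemented minus deficient (1 without supplemented replicate 1). With the replicate number as a block, 0 probes were called in all 3 comparisons. Every diet holds the same replicate numbers, so this block cannot change the Fmod differences (supplemented minus control -1.26), and nothing is read from their staying the same. By Pearson r, pairs of members past adjusted p 0.05 numbered 1, but 2 with diet and slide means taken out, and 1 to 4 without single tumours (3 without control replicate 1, 4 without deficient replicate 3). Fmod with Bgn passed by Pearson r in 22 of 22 settings, with an adjusted permutation p of up to 0.0494. Its Spearman rho did not pass in the main setting (permutation p adjusted 0.158) and is not given for the others. Fmod in supplemented minus control ran from -1.78 (normexp) to -1.09 (without control replicate 4), in supplemented minus deficient from -1.29 to -0.64 and in deficient minus control from -0.65 to -0.08. Fmod minus the mean of the others kept its sign in all 30 alternatives of each comparison (supplemented minus control -1.39 to -0.72). This is a description, because supplemented minus control chose Fmod. Leaving out a tumour of the third diet also cannot change a comparison of the others, so the alternatives are not separate checks. The median of the members for deficient minus control changed sign in 10 of 28 alternatives (-0.34 to 0.37). The causes were not tested. Probes near background limit what can be said of Lum, Omd and Aspn, and the Ogn probes had no value under the strictest filter.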
